A study of Homo sapiens with 6 samples.

Results

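TRIO (ENSG00000038382.23) spans 389 kb of the forward strand of chromosome 5, from 14143342 to 14532128 in hg38. Its regions were chosen by position, as every record of the deposited peak lists that overlapped the gene body or the 100 kb on either side, which is chr5:14043342-14632128. Of the 19108 regions in the list for full-length ZNF469, 24 belonged, and of the 54 regions in the list for dZF-ZNF469, 0 did. Within the full-length list, 5 regions lay in the upstream flank, 18 in the gene body and 1 in the downstream flank. The gene itself was selected on its number of regions and on the signal in them. Counts, heights and backgrounds at TRIO are therefore given as a description, with no test.

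The lists came from CUT&RUN, in which an antibody, here against ZNF469, tethers a nuclease to chromatin and the DNA it cuts free is sequenced. The cells were LX-2, an established line of human hepatic stellate cells, which make the collagen of the fibrotic liver. They carried a doxycycline-inducible piggyBac transgene for full-length ZNF469 (clone3.4 in the labels) or for dZF-ZNF469, which lacks most of the zinc fingers (clone3.1), and both groups received 1 ug/mL doxycycline for 24 h, with 3 libraries in each of the 2 groups. Because every construct has a line of its own, construct and line cannot be told apart, and the labels do not say whether a clone name stands for cells or for a plasmid. The authors deposited 1 list per group, pooled over its libraries, so no value has a replicate error, and the identity of the line was not checked against RNA markers. A region in a list is not a measure of TRIO RNA, which was not analysed here.

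TRIO is a guanine nucleotide exchange factor, a protein that switches on small GTPases such as RAC1 by loading them with GTP. Through them it acts on the actin cytoskeleton, and it is known for its part in cell migration and in the outgrowth of axons. Its paralog KALRN has the same domain plan. The letters TGACTCA, which read TGAGTCA on the other strand, are those bound by AP-1, the dimers of JUN and FOS proteins.

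The sequences below are from hg38, forward strand, centred on the summit of the region. They are the region with the highest summit pileup, the one with the highest fold enrichment, the one nearest the TRIO start, and the 3 whose AP-1 letters lay nearest the summit. Capitals mark TGACTCA or TGAGTCA.
Highest pileup, intron 1, chr5:14190493-14190791: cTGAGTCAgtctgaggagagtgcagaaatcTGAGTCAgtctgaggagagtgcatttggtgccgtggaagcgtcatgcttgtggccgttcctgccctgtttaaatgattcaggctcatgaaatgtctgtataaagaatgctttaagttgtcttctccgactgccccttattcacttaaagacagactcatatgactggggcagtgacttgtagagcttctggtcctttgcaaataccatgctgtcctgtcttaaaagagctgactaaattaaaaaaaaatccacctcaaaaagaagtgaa
Highest fold, upstream flank, chr5:14098199-14098319: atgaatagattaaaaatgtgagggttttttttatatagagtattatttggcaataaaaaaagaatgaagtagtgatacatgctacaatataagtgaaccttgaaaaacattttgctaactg
Nearest the TRIO start, chr5:14143174-14143294: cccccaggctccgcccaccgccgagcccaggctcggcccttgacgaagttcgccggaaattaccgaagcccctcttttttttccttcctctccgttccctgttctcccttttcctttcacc
AP-1 letters 4 bp from the summit, intron 1, chr5:14185731-14185851: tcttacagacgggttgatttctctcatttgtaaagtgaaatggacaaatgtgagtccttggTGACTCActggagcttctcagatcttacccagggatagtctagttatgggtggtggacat
AP-1 letters 12 bp from the summit, intron 1, chr5:14178774-14178894: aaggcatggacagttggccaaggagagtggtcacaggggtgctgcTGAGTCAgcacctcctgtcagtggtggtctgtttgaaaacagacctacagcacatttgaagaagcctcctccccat
AP-1 letters 21 bp from the summit, exon 33 and its donor site, chr5:14406638-14406758: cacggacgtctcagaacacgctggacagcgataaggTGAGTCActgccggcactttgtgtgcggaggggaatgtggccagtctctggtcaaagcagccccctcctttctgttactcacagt
In the first of these, the copies of TGAGTCA stand in a run of 24 bases that occurs again 29 bp further on. In the last, TGAGTCA starts at base 2 of intron 33, so that the letters overlap its splice donor. The sequences with the highest fold and nearest the start hold no match.

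For each region the height at the summit (the pileup, a count of fragments in the pooled libraries) and the caller's local background (the number of fragments expected at that position) were recovered from the deposited fold and p-value. Limits beside a pileup are 95% Poisson limits and cover counting error only. The regions at TRIO had a median pileup of 58.5 fragments, and 50% of them lay between 42.8 and 82.2, with 21 the lowest and 146 the highest. The median of the whole full-length list was 20, and all 24 regions at TRIO were above it. Local background had a median of 10.2 fragments and ran from 2.88 to 19.8, against a median of 1.82 in the whole list, and again all 24 were above the list median. Fold enrichment divides the height by the background, and only 9 of the 24 exceeded the list median of 7.36. The deposited score, which runs up to 1000 with better agreement in rank, was 1000 for 16 of the 24 and at least 653 for the others. At COL1A1 with its flanks, the gene compared below, 13 of 18 regions scored 1000. The share over the whole list is not given here, so 16 of 24 is not read as unusual.

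**Figure D1:**
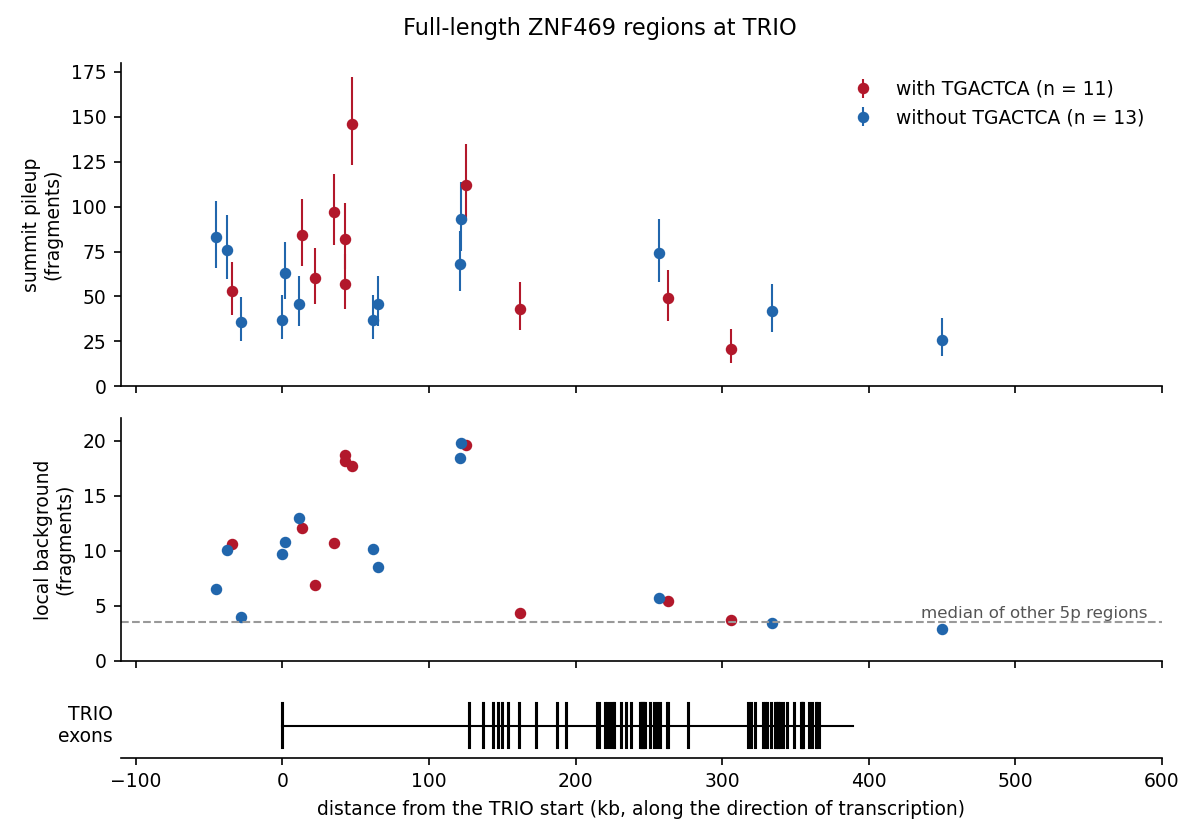
Summit pileup (top, with 95% Poisson limits) and local background (middle) of the 24 full-length ZNF469 regions at TRIO by distance from the gene's start, above the exons of the MANE transcript (bottom, drawn with a minimum width). Red points hold TGACTCA, blue points do not, and the dashed line is the median background of the other regions on 5p, 3.5 fragments. The backgrounds of the 13 regions in intron 1, 6.89 to 19.8, are above those of the 5 regions past it, and overlap those of the upstream flank.

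Upstream of the gene, 4 regions stood in intergenic sequence between 45.1 and 28.4 kb before the start. The most distant, at chr5:14097949-14098663, had a pileup of 83 (66.1 to 103) over 6.53 and, at 11.2, the highest fold at TRIO. The next, 37.5 kb upstream, had a pileup of 76 (59.9 to 95.1) over a background of 10.1. These heights have overlapping limits, and the difference in fold went with the background.

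The remaining region of the upstream flank, chr5:14143061-14143336, ended 5 bp before the gene and its summit lay 108 bp before the start. Its pileup was 37 (26.1 to 51.0) over a background of 9.68, which gave a fold of 3.56 and the lowest score of the 24, 653. The RefSeq promoter of TRIO (GRCh38.p14, chr5:14143092-14143391) overlapped it by 245 bp. That 300 bp window has a GC content of 66.3%, against a median of 58.7% over 35116 RefSeq promoters of the same length, and contains 28 CpG sites. It holds no TGACTCA on either strand, letters that stood in 4.95% of all those promoters.

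Of the 18 regions in the gene body, 13 lay in intron 1 of the MANE transcript (ENST00000344204.9, the reference transcript with 57 exons). Intron 1 is 127 kb long and makes up 32.7% of the gene, and it held 72.2% of the gene body regions. This is 102 regions per Mb, compared with 19.1 per Mb over the rest of the gene. Regions covered 5.80% of the intron. Intron 34, the next longest at 41.0 kb, held 1 region. Of the 56 introns 4 held a whole region, where a region that overlapped an exon was counted at the exon.

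The first 7 regions of intron 1 lay between 2.04 and 42.9 kb past the start. A region 2.04 kb past the start, and 0.566 kb past the start of the transcript ENST00000704488.1, had a pileup of 63 (48.4 to 80.6) over 10.8. The region at chr5:14156436-14157357 reached 84 (67.0 to 104) over 12.1, and the one at chr5:14178481-14179240 reached 97 (78.7 to 118) over 10.7. The latter had the highest fold of intron 1, 8.36. Those remaining from this stretch had pileups of 46 to 82.

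The highest region at TRIO, chr5:14190136-14190925, was in intron 1, 47.3 kb past the start and 6.84 kb past the start of the protein-coding transcript ENST00000509967.6. Its pileup of 146 (123 to 172) over a background of 17.7 ranked 4 in the full-length list of 19108. Nearer to that start, chr5:14185578-14185940 had a pileup of 82 (65.2 to 102) and chr5:14186138-14186370 a pileup of 57 (43.2 to 73.9), over backgrounds of 18.1 and 18.7. The latter pair had folds of 4.34 and 2.95, and 2.95 was the lowest fold at TRIO.

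Near the end of intron 1, 3 regions next to each other had backgrounds of 18.4 to 19.8. At chr5:14268108-14268779 the pileup was 112 (92.2 to 135) over a background of 19.6, at chr5:14265451-14265994 it was 93 (75.1 to 114) over 19.8, and at chr5:14264567-14265068 it was 68 (52.8 to 86.2) over 18.4. The first of these overlapped exon 2 of ENST00000704488.1, a protein-coding transcript. The background of 19.8 was the highest at TRIO. Between these and the highest region, 2 regions at 61.7 and 65.0 kb past the start were lower, with pileups of 37 and 46 over backgrounds of 10.2 and 8.48.

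Past intron 1 there were 5 regions in 262 kb. The region in intron 30, chr5:14399897-14400550, had a pileup of 74 (58.1 to 92.9) over 5.73, and its fold of 11.1 came next to the highest at TRIO. Exons 32 and 33 were overlapped by chr5:14405986-14407028, the widest region at 1043 bp, whose summit lay in intron 33, with a pileup of 49 (36.3 to 64.8) over 5.47. Exon 41 was overlapped by chr5:14476839-14477170, with 42 (30.3 to 56.8) over 3.45. In the order given, the summits of these regions lay 1.24, 0.484 and 2.33 kb from the nearest TRIO transcript starts. Those were the starts of ENST00000509354.1, ENST00000512303.1 and ENST00000511019.1. In intron 8, chr5:14305020-14305351 had 43 (31.1 to 57.9) over 4.31, and in intron 34, chr5:14449236-14449804 had 21 (13.0 to 32.1) over 3.67, the lowest pileup at TRIO. All 5 backgrounds were below those of intron 1: the highest past the intron was 5.73 and the lowest within it was 6.89. Pileups overlapped, with ranges of 21 to 74 past the intron and 37 to 146 within it. The only region of the downstream flank, chr5:14593397-14593911, lay 61.4 kb past the end of TRIO in an intron of OTULINL, with a pileup of 26 (17.0 to 38.1) over 2.88.

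The letters TGACTCA were read from the genome, which the choice of TRIO had not used. They stood 17 times in 11 of the 24 regions (45.8%, 95% Clopper-Pearson interval 25.6% to 67.2%). The share over the full-length list was 44.1%, so TRIO was near the background. In the gene body it was 10 of 18 (55.6%, 30.8% to 78.5%), an interval that contains the share of the list. Among all intronic regions of the list the share was 51.5%, and among the other 5p regions it was 44.2%. In the upstream flank 1 of 5 regions held it. Of the 11 regions, 7 had 1 match, 2 had 2 and 2 had 3, the last being the regions with pileups of 146 and 112. Within 150 bp of the summit, 9 of 24 regions (37.5%) held a match, against 38.9% of the list, and within 50 bp 5 of 24 (20.8%) did, against 19.3% of the list. Regions with the letters had a median pileup of 60 and regions without them 46, with ranges of 21 to 146 and 26 to 93 that overlap.

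Related letters gave a like picture. TGANTCA, which includes TGACTCA and lets the middle base vary, stood in 16 of 24 regions (66.7%, 44.7% to 84.4%) and in 56.1% of the list. The region with the highest background, which has no TGACTCA, held TGANTCA 3 times. TGACGTCA, the full cAMP response element, stood in 1 of 24, the region at chr5:14264567-14265068, and in 1.12% of the list. GGAATG, the core of TEAD sites, stood in 5 of 24 (20.8%, 7.13% to 42.2%), below the 35.6% of the list, which lies inside that interval. TGTGGT, the core of RUNX sites, stood in 9 of 24 (37.5%, 18.8% to 59.4%) and in 31.7% of the list. All 9 were among the 17 regions at TRIO more than 3 kb from any transcription start. In the list, 4199 of the 6048 records with TGTGGT lay that far from a start, as did 11605 of all 19108. At TRIO, regions nearer a start were narrower, with a median width of 363 bp against 596 bp. Regions at TRIO were also wider than those of the list, with medians of 579 and 440 bp. Within 150 bp of the summit, TGTGGT stood in 20.8% at TRIO and 24% of the list. For TGANTCA these shares were 54.2% and 50.2%, and for GGAATG 16.7% and 27.8%. All letters were searched on both strands, and a match is a description of the sequence and no evidence of a bound factor.

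The local background was compared with the rest of chromosome arm 5p. Outside TRIO, 5p held 430 regions with a median background of 3.5 fragments and quartiles of 2.75 and 4.63, so that the TRIO median of 10.2 (quartiles 5.66 and 14.2) was 2.91 times as high. The 6 highest backgrounds of the arm were all at TRIO, in intron 1. Of the 24 regions, 22 exceeded the median of the rest of the arm, and 13 had a background above 10, which 3 of the 430 others did. Those 3 lay just outside the upstream flank. More than 1 Mb from TRIO the highest background on 5p was 9.59, and 14 regions at TRIO exceeded it. The median pileup at TRIO was 1.95 times that of the rest of the arm (58.5 against 30), and the median fold 0.887 times (5.99 against 6.75).

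**Figure D2:**
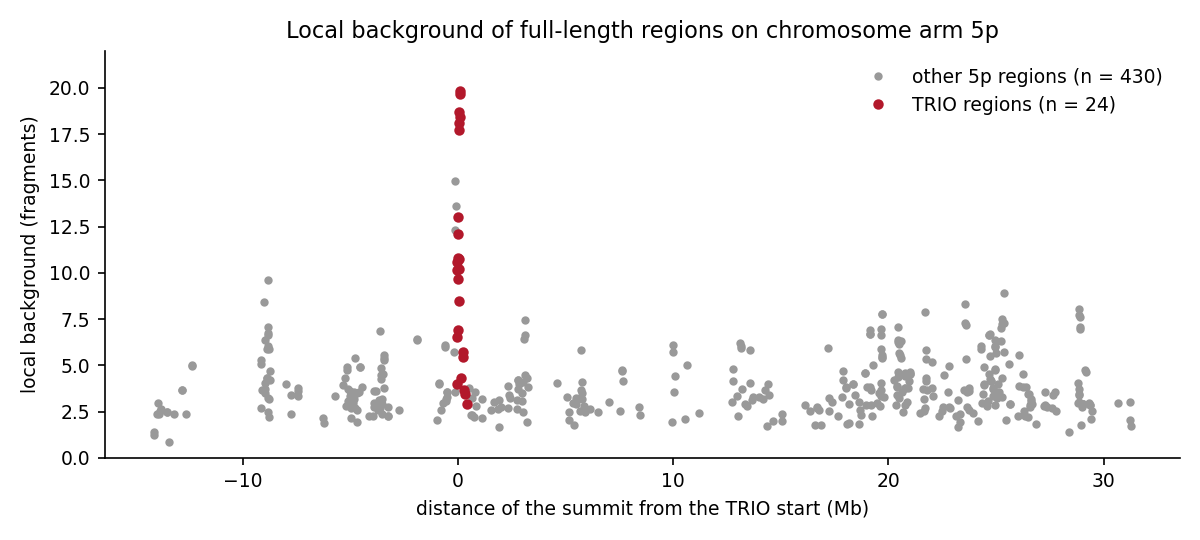
Local background (fragments) of all 454 full-length regions on chromosome arm 5p by distance of the summit from the TRIO start, with the 24 regions at TRIO in red and the 430 others in grey. The red points reach 19.8, and no grey point more than 1 Mb away exceeds 9.59.

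Chromosome arm 5p itself had a higher median background than 5q and every other chromosome. Its median over all 454 regions was 3.57 fragments, against 2.12 on 5q and between 1.35 and 2.15 on each of the other 23 chromosomes. The part of this difference in the TRIO values was not tested. Against 5q the TRIO median was 4.80 times as high, and against the other chromosomes 5.74 times. When only regions in the upper 50% of the list by fold were kept, 9 regions remained at TRIO, with a median background of 5.73 that was 1.55 times that of the rest of the arm. A limit on fold removes regions of high background by its construction.

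The high background had no sharp edge at the 100 kb limit. Going upstream, the regions 4.61, 6.54 and 10 kb outside the flank had pileups of 59 (44.9 to 76.1), 124 (103 to 148) and 54 (40.6 to 70.5) over backgrounds of 13.6, 15 and 12.3. They lie in the intergenic sequence between TRIO and DNAH5, which encodes a heavy chain of axonemal dynein. Further out, the region 31.1 kb outside, at the start of DNAH5, had a background of 3.53. The next, 57 kb outside in an intron of DNAH5, had a pileup of 58 (44 to 75) over 5.71. Downstream, the region 32.1 kb outside, at the start of the deubiquitinase gene OTULIN, had a pileup of 24 (15.4 to 35.7) over 3.78, and the 3 regions of ANKH, a transporter gene beyond it, had a median background of 2.34. The long noncoding RNA gene ENSG00000287581 inside TRIO and the pseudogene ENSG00000248791 in the downstream flank held no region.

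With records at the lowest background, 0.865, left out, 100% of the backgrounds below 3 fragments in the list were whole multiples of 0.0103. The tolerance was 0.02 steps, and the next best step gave 57.4%. The step of 0.0103 is 103 bp in a window of 10 kb. A background above the lowest was therefore read as a number of fragments in the 10 kb around a summit. No region at TRIO was at the lowest background. Whether a control library was used is not given in the sources used here. The step does not tell whether the fragments are those of the ZNF469 libraries or of a control. If they are those of the ZNF469 libraries, they include those of the regions, and a high background means a neighbourhood rich in ZNF469 fragments. With a control, it would mean a high level there. Read as fragments in 10 kb, the backgrounds at TRIO were between 280 and 1924, with a median of 988, against a median of 340 for the other 5p regions. Neighbouring regions share part of this count. Of the 23 gaps between neighbouring summits 14 were under 10 kb, and 20 of the 24 regions had another within that distance. The 24 backgrounds are therefore not independent values.

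COL1A1, which encodes a chain of type I collagen, was the gene set beside TRIO. It spans 17.5 kb of chromosome 17, from 50184101 to 50201632, and with flanks of 100 kb it held 18 full-length regions and 0 dZF regions, 8 of the full-length regions in the gene body. In the COL1A1 gene body the background ran from 21.3 to 44 fragments, with a median of 37.3, and no region at TRIO reached 21.3. The TRIO gene body had a median of 10.7. Pileups in the COL1A1 body ran from 79 to 138, with a median of 113, and 7 regions at TRIO were at or above 79. The tallest region at TRIO, at 146 (123 to 172), and the tallest at COL1A1, at 138 (116 to 163), could not be told apart within their counting limits. Folds in the COL1A1 body, with a median of 2.94, were lower than the 5.46 of the TRIO body. The flanks of COL1A1 had a median background of 6.14, and over body and flanks together the medians were 10.1 at COL1A1 and 10.2 at TRIO. At COL1A1 the high backgrounds filled a short gene, with regions over 19.1% of its length, while at TRIO regions covered 2.65% of the gene.

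**Figure D3:**
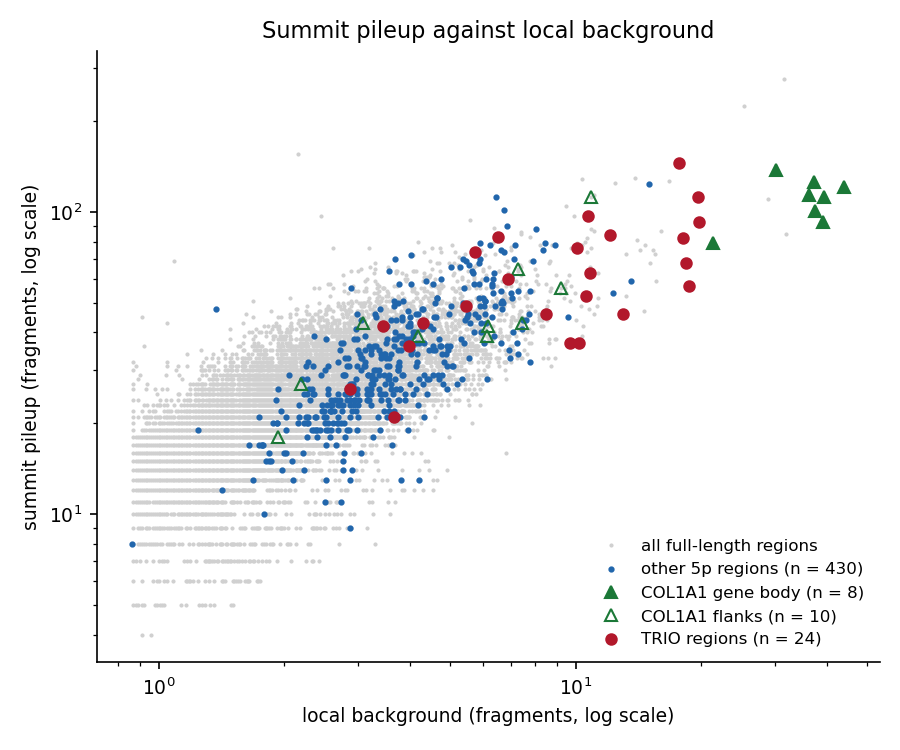
Summit pileup against local background (both in fragments, log scales) for all full-length regions (grey), the 430 other regions of 5p (blue), the 8 regions of the COL1A1 gene body and the 10 of its flanks (filled and open green triangles) and the 24 regions at TRIO (red). The highest TRIO backgrounds, up to 19.8, lie above those of the other 5p regions, up to 15, and below those of the COL1A1 gene body, from 21.3; pileups reach 146 at TRIO and 138 at COL1A1.

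Among the 20007 protein-coding genes, 33.7% had at least 1 full-length region, and 7 had more than the 18 of TRIO. The most belonged to RAD51B, with 31, a gene of 910 kb that was noted after its values were seen. Among the 443 genes with at least 5 regions TRIO ranked 3 by median background and 3 by median pileup, after COL1A1 and COL3A1, the gene for type III collagen. Its pattern was compared with theirs by the distance over gene length, number of regions, median pileup and median background, each on a log2 scale divided by its SD. The nearest gene was VMP1, which encodes an autophagy protein, with 13 regions and medians of 47 (pileup) and 9.47 (background). FRMD6 followed with 11 regions and medians of 45 and 5.92, and then COL5A2, the gene for a chain of type V collagen, with 16 regions and medians of 36 and 5.98. The distances were 1.92, 2.37 and 2.54, and that of COL1A1 was 5.83.

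KALRN, the paralog, is longer, at 693 kb, and had 11 regions. Their pileups ran from 9 to 27, with a median of 16, and their backgrounds from 0.865 to 2.28, so that no background at KALRN reached the lowest at TRIO, 2.88. TGACTCA stood in 8 of the 11, beside 44.1% of the whole list and 51.5% of its intronic regions. KALRN lies on chromosome 3, and TRIO on the arm with the higher background. Only the 2 lowest pileups at TRIO, 21 and 26, fell within the range at KALRN.

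The dZF list had no region at TRIO, and its 2 records on chromosome 5 were 2990 kb and more from the gene. It held 54 records in all, beside 19108 in the full-length list, and also had 0 at COL1A1 and its flanks. A locus without dZF regions was therefore not particular to TRIO. The lowest local background was 0.625 fragments in that list and 0.865 in the full-length list, but total depth was not analysed here, and its part in the missing regions was not tested. Records also had to pass the IDR filter, which asks for agreement in rank, to be listed. With 1 pooled list per construct the difference has no replicate check, and a region missing from the list is not a measured absence of signal.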

How the data were processed

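CUT&RUN with an antibody against ZNF469 was analysed from 2 deposited peak lists, each pooled by the authors over the 3 libraries of a group. Per the labels, reads were aligned with Bowtie2 (version 2.3.4.3) to hg38 and the submitters' processing notes name MACS2 (version 2.2.5). The lists had passed an IDR filter, and use of a control library is not given in the sources used here. The deposited columns used were the score, the fold enrichment, the −log10 p-value and the summit offset. No total depth was analysed here.

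Pileup and background were recovered for each record from the fold, (pileup + 1)/(background + 1), and the Poisson −log10 p-value. A whole pileup was found for 100% of 19108 and of 54 records, with a largest miss of 6.9e-05. The procedure was tested on simulated data first.

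Genes followed GENCODE 44, and the longest gene-free stretch separated 5p from 5q. A region within 3 kb of any transcript start counted as promoter. Python 3.11.15, pandas 2.3.3 and scipy 1.17.1 were used. Limits are 95% Poisson or Clopper-Pearson and cover counting error only. No test was run, since each group is 1 pooled list. TRIO, the motifs and the genes named were chosen with earlier results of these data known. Genes named are KALRN, COL1A1, the neighbours of TRIO and the 3 genes most like TRIO. Lists of other genes set up beside these are not reported here. Alternatives changed the flank, the fold or pileup required, the comparison set, the average and the motif.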

Additional observations from a re-analysis of the deposited data

How the results depend on the processing

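Of 39 alternative values for 6 results, 25 stayed within 1.5 times the count, or within the counting limits of the value, and 14 moved. For the median pileup, those limits were those of a single count, 44.5 to 75.5. For the median background they were those of a single count of fragments in 10 kb, 9.55 to 10.8. Neither covers the spread between regions. The 25 include values that could not change. Keeping the upper 50% by pileup kept all 24 regions, which all exceeded the list median. Counts, medians and AP-1 share at TRIO were then fixed in advance, and only the ratio to 5p could differ, at 2.76. Keeping the upper 50% of the list by fold left 9 regions at TRIO, 7 of them in the gene body, with a median background of 5.73 and a ratio to the rest of 5p of 1.55. Keeping the upper 25% left 3 regions, 2 in the gene body, with a median background of 5.73, a ratio of 1.53 and 0% with TGACTCA. Fold is divided by the background, so both limits remove regions of high background by construction. The ratio was 3.12 against other 5p regions within 5 Mb, 4.80 against 5q, 5.74 against the other chromosomes and 2.68 as a ratio of means, and each of these stayed above 1. With TGACTCA sought within 50 bp of the summit the share was 20.8%, beside 19.3% of the whole list for the same narrower window. Flanks of 50 and 200 kb gave 23 and 30 regions. No paired analysis was possible because each group is deposited as 1 pooled list, and for the same reason no library could be left out.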
